A study of Mus musculus with 18 samples.

Results

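The Wnt ligands, their receptors and their regulators were followed across the cell types of the adult mouse stomach. The set was taken by symbol. It holds every gene name in the count tables that begins with Wnt, Fzd, Rspo, Sfrp or Dkk and a digit, together with Lrp5, Lrp6, Axin2, Rnf43, Znrf3, Notum, Porcn and Wls. This gave 43 of the 31201 gene names in the files, of which 38 were listed in dataset 1, 40 in dataset 2 and 35 in both. The 43 comprise 14 Wnt ligands, 10 Frizzled receptors with 1 antisense transcript (Fzd10os), 3 R-spondins, 4 Sfrp and 3 Dickkopf antagonists, and the 8 single genes. No expression value entered the choice.

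All mice were WT, Male and of strain C57BL/6J, 10 weeks old by the study's methods. Dataset 1 held corpus and antrum gastric units, sorted as ToPro3(-) by the labels, in 2 pools (tube1 and tube2) of 3 mice on 6 plates; the study's methods name PI as the dye against which its dead cells were removed. Dataset 2 held corpus gastric units, sorted as Hoechst33342(+),ToPro3(-), in 2 pools (K and T) of 3 mice on 12 plates. Each plate had 384 wells, and single cells were read by Quartz-Seq2, a plate-based method that counts unique molecular identifiers (UMIs). There was no treated or mutant group, so every comparison is between cell types, and whether a dataset 1 cell came from the corpus or the antrum is known only through its cluster.

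Wnt proteins are lipid-modified by Porcn, carried to the cell surface by Wls and bound there by a Frizzled receptor together with Lrp5 or Lrp6, which stops the breakdown of β-catenin and lets it act with TCF factors on target genes. Sfrp proteins bind Wnts outside the cell, Notum removes the lipid, and Rnf43 and Znrf3 clear Frizzled receptors from the membrane unless an R-spondin withdraws them. Axin2, Notum, Rnf43 and Znrf3 are themselves widely used as readouts of β-catenin activity. In the gastric glands Wnt signals are known for their part in the renewal of the lower gland, and the stroma around the glands is a known source of R-spondin and of non-canonical Wnt ligands.

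TCF factors bind the letters CTTTGAT or CTTTGAA. The 250 bases before the annotated start of the canonical transcript were searched on both strands for these letters in the mouse genome GRCm39 with the Gencode annotation. Of 29881 promoters of the genes in the files, 2291 (7.67%) held a match, and of the 43 set members 4 did (9.3%): Axin2, Notum, Lrp6 and Dkk4. The windows of Axin2 and Notum are shown because both genes are feedback inhibitors whose UMIs among the epithelial types are described below. The Axin2 window is chr11:108811388-108811637 on the plus strand, with the match 22 bases before the start, and the Notum window is chr11:120552020-120552269 on the minus strand, with the match 53 bases before the start. Both are written 5′ to 3′ along the gene, and capitals mark the match.
Axin2: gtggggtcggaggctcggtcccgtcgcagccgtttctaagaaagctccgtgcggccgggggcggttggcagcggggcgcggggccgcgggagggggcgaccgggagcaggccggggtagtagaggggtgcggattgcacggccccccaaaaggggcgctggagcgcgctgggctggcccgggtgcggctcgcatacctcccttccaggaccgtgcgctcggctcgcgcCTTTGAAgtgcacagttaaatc
Notum: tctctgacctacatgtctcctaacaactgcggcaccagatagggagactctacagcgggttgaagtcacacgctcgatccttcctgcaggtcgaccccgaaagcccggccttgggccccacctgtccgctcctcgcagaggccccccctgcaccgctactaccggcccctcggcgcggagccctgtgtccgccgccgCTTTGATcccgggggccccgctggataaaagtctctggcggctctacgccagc
The share of set members with a match lies near that of all promoters, and a match is a description of the letters only.

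Dataset 1 held 491 annotated cells with 19906729 UMIs and dataset 2 held 3993 cells with 139611402 UMIs, of which 9954 and 83607 were UMIs of set members. The study's own clusters were grouped into cell types, and UMIs were summed per pool and type. Stromal-like cells were the cells outside the epithelial clusters that showed at least 3 of 6 markers of either the Pdgfra-type or the Acta2-type list. In dataset 1 they were 33 cells of clusters 11 and 12 (11 in tube1, 22 in tube2), and in dataset 2 they were 5 cells of cluster 15, all from pool K. Their summed Pdgfra-type markers stood at 26161 and 30071 CPM (UMIs of a gene per 1000000 UMIs of the sum) in the pools of dataset 1 and at 17359 in pool K, while every other type had at most 64.8 CPM. The same markers served to choose the cells, so these levels are no separate check of what the cells are. Acta2-type markers outnumbered Pdgfra-type ones in 15 of the cells in dataset 1 and in 3 in dataset 2. RNA of pit cells was found in every type: cells of each type showed on average at least 3 of the 4 pit markers, and in stromal-like cells of dataset 1 these summed to 2406 and 6807 CPM, against 161204 and 157415 in mature pit cells. No 2 annotated cells had identical counts, and the same 384 well barcodes served on every plate by design.

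A small number of set members carried most of the UMIs. In dataset 1, 22 of 43 had at least 20 UMIs, and in dataset 2, 26 did. Of the 14 Wnt ligands only 5 reached this level in either dataset: Wnt4, Wnt5a, Wnt5b, Wnt9a and Wnt11. Of the 3 R-spondins only Rspo4 did. Rspo3 had 1 UMI in dataset 1 and 7 in dataset 2, Rspo1 had 1 in each, and no gene named Rspo2 was listed. Nearly every Frizzled gene was measurable (9 of 10, all but Fzd10), as were all 8 single genes. Wls, the Wnt carrier, had 24131 UMIs in dataset 2 and Fzd4 had 14230. Porcn had 2358 UMIs there and was found in 1672 of the 3993 cells. In dataset 2 the 14 Wnt ligand genes together held 1724 UMIs, and the 10 Frizzled genes 35147. These are UMI totals that are not scaled by transcript length. The remaining set members, named here only by their families, each had at most 9 UMIs in either dataset.

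**Figure D1:**
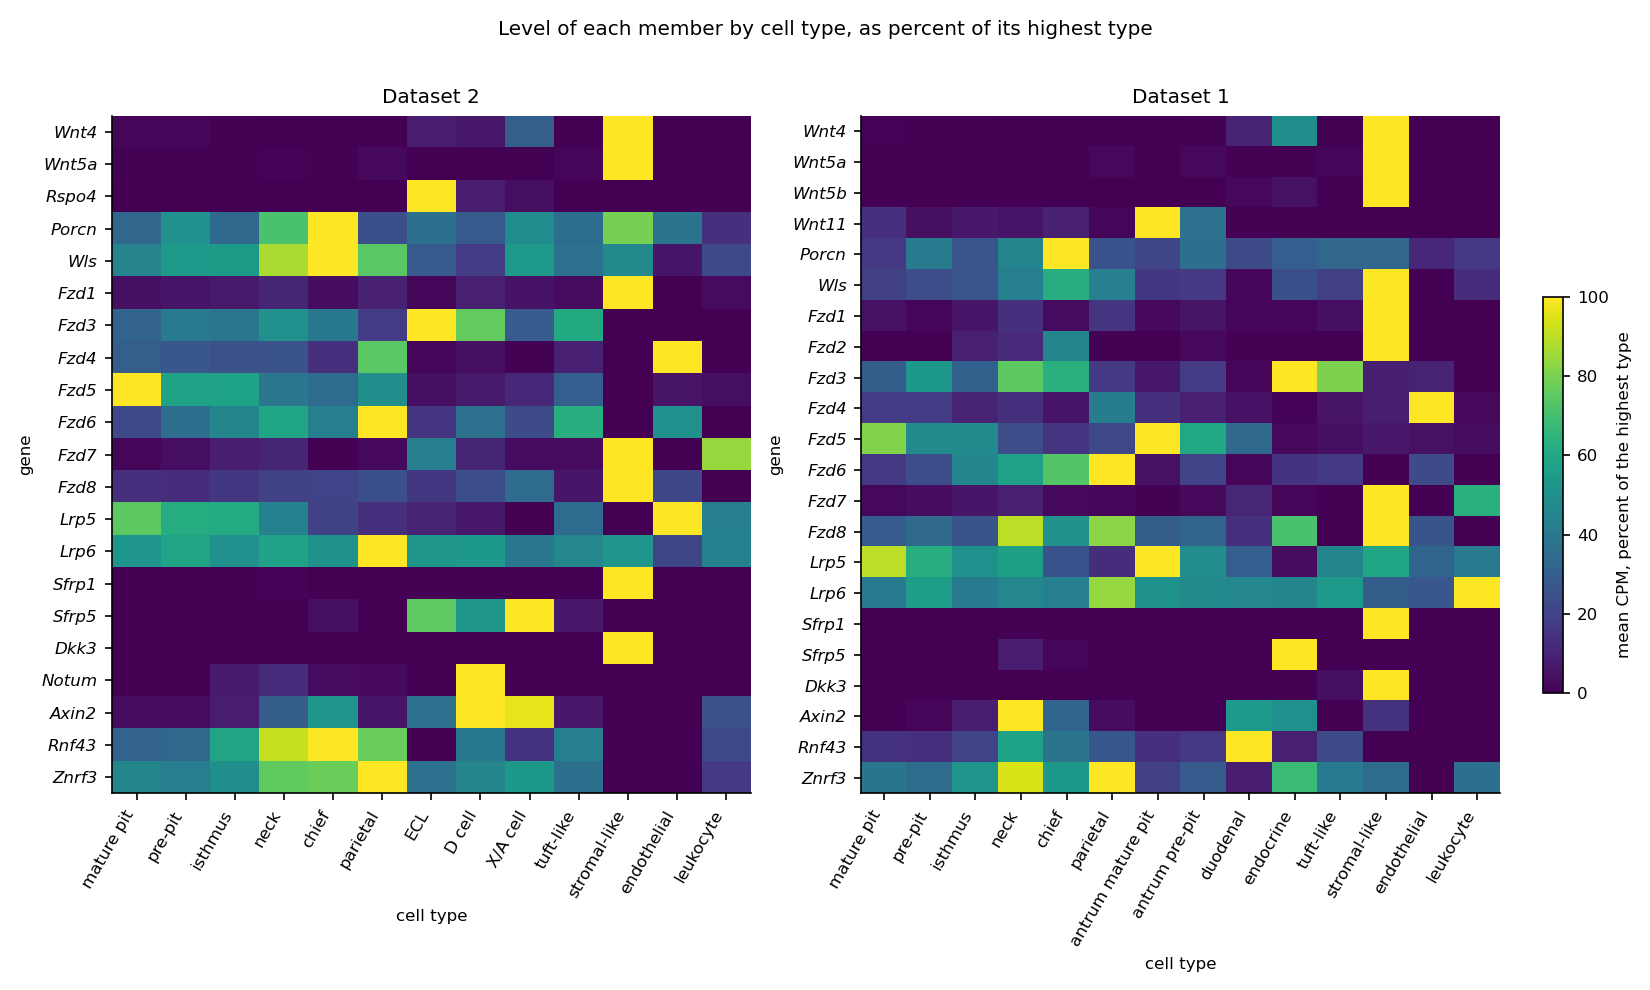
Mean level of each set member in each cell type of dataset 2 (left) and dataset 1 (right), as a percent of the type in which that gene was highest (color scale from 0 to 100); levels are CPM with edgeR scaling, averaged over the 2 pools (1 pool for stromal-like cells of dataset 2). Wnt4, Wnt5a, Sfrp1 and Dkk3 are highest in stromal-like cells in both datasets, Sfrp5 in endocrine cells, and Rspo4, shown for dataset 2 only, in ECL cells.

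The first comparison asked which set members came from stromal and which from epithelial cells. In dataset 1, 12 of the 22 set members that could be tested differed between stromal-like cells and the mean of the 8 epithelial types, 9 higher and 3 lower (edgeR's quasi-likelihood test with Benjamini-Hochberg adjustment at 0.05). Over all 12245 genes tested, 39.8% were called and 22.5% were called higher, and the median log2 fold change was 0.78 for the set and -0.10 for all genes. A gene enters the fit when a group has enough UMIs, so the 22 are not a sample of the 43. Dkk3, Fzd2, Fzd7, Sfrp1, Wnt4, Wnt5a and Wnt5b did not enter the fit of the epithelial types alone, where 15 set members were tested. All of them were called higher in stromal-like cells, and the other higher calls were Fzd1 and Wls. The share of higher calls and the set's median in dataset 1 therefore do not show an excess in the set. In dataset 2, 7 of 21 were called, 6 higher and 1 lower, against 11.1% of all genes called and 5.54% called higher. There the median log2 fold change was -0.82 for the set and -1.26 for all genes. DESeq2 called 7, all higher, and a fit of both datasets together called 15 of 19, 9 of them higher. The dataset 2 contrast rests on the 5 cells of pool K, whose lone sum is assumed to vary like the other types. The clusters were made from the same counts, so all p-values here describe how far apart clusters lie over 2 pools.

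Wnt5a (chromosome 14, 28226495 to 28249405, plus strand of GRCm39), a ligand best known for non-canonical signaling, was the ligand with the most stromal UMIs. Its scaled level in stromal-like cells of dataset 1 was 277 CPM in tube1 and 376 in tube2, and in pool K of dataset 2 it was 334. Epithelial cells of dataset 1 held 33 Wnt5a UMIs in all against 146 in the 33 stromal-like cells, which is 1.92 against 382 CPM and a ratio of 198.5 (exact 95% interval 135 to 299, counting error only). The log2 fold change was 8.06 ± 0.44 (SE; edgeR adjusted p = 3.58e-14) in dataset 1 and 6.73 ± 0.64 (edgeR adjusted p = 9.45e-09) in dataset 2. Stromal-like cells were 6.72% of the cells of dataset 1 and held 1.92% of its UMIs and 81.1% of its Wnt5a UMIs. In dataset 2, where they were 0.125% of the cells, they held 3.98% of the Wnt5a UMIs, and the epithelial cells held 452 UMIs.

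Wnt4 (chromosome 4, 137004373 to 137027037, plus strand), a ligand with canonical and non-canonical roles, was higher in stromal-like cells as well, at 132 and 181 CPM in the pools of dataset 1 and 246 in pool K. The ratio to epithelial cells was 314 (161 to 683.3) in dataset 1 and 361 (192 to 626) in dataset 2, and the fitted log2 fold changes were 8.06 ± 0.45 and 8.70 ± 0.86 (edgeR adjusted p = 6.56e-14 and 4.63e-08). Wnt5b, a close relative of Wnt5a, had 4 and 9 UMIs in stromal-like cells of dataset 1 (log2 fold change 7.26 ± 0.92, edgeR adjusted p = 1.36e-06) and 0 in the 5 stromal-like cells of dataset 2, where epithelial cells held 84 UMIs. At 38194 UMIs those 5 cells could not show a Wnt5b ratio below 128. Wnt9a had 5 stromal UMIs against 15 epithelial ones in dataset 1, a ratio of 14.95 (4.25 to 43.3).

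Wnt11 (chromosome 7, 98484319 to 98504402, plus strand), a ligand of cell movement and polarity, had 0 UMIs in stromal-like cells of both datasets. All 230 of its UMIs in dataset 1 lay in epithelial cells, 155 of them in antrum mature pit and 29 in antrum pre-pit cells. The 0 UMIs allow a ratio of at most 0.585 to all epithelial cells together, and the fitted comparison was not called (edgeR adjusted p = 0.0706). Of its 697 UMIs in dataset 2, 691 were epithelial, and the 5 stromal-like cells there could not show a ratio below 15.6.

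Of the Wnt export genes, Wls was called higher in stromal-like cells of dataset 1 only, and Porcn was called in neither dataset. Wls stood at 324 and 362 CPM in the stromal-like cells of dataset 1 and was higher than in the epithelium by a log2 fold change of 1.84 ± 0.18 (edgeR adjusted p = 7.28e-10). In dataset 2 the ratio for Wls was 1.20 (0.52 to 2.37) from 8 stromal UMIs and was not called. For Porcn the ratio was 1.25 (0.40 to 2.96) in dataset 1, from 5 UMIs, and 3.11 (0.38 to 11.25) in dataset 2, from 2 UMIs. Both Porcn intervals include 1 and are wide, so a difference between the 2 genes is not shown.

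The secreted antagonists Sfrp1 (chromosome 8, 23901263 to 23939648, plus strand) and Dkk3 (chromosome 7, 111712904 to 111758760, minus strand) had the largest ratios of the set in this comparison. Sfrp1 had 183 UMIs in the stromal-like cells of dataset 1 and 7 in the epithelium, with scaled stromal levels of 337 and 477 CPM in the pools. The ratio was 1173 (558 to 2958) in dataset 1 and 366 (219 to 580) in dataset 2. Dkk3, a divergent protein of the Dickkopf family, had 114 stromal UMIs and 1 epithelial UMI in dataset 1 (a ratio of 5114, interval 899.5 to 203700). In dataset 2 it had 20 and 13, a ratio of 5514 (2610 to 12060). Stromal-like cells held 97.4% of the Dkk3 UMIs and 95.3% of the Sfrp1 UMIs of dataset 1. In dataset 2 they held 60.6% and 9.09%, since epithelial cells there held 196 Sfrp1 UMIs. Sfrp1 and Dkk3 were called higher in stromal-like cells in both datasets by edgeR.

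Among the receptors, Fzd1, Fzd2 and Fzd7 were higher in stromal-like cells, and Fzd5 and Fzd6 were lower. Fzd1 stood at 106 and 177 CPM in the stromal-like pools of dataset 1 and at 211 in pool K, with ratios of 18.9 (13.9 to 25.5) and 21.5 (11.1 to 37.7). Fzd7 had ratios of 35.65 (21.5 to 58.6) and 24.95 (5.12 to 73.4), the second from 3 UMIs. Fzd2 had a ratio of 28.7 (14.3 to 55.9) in dataset 1. Fzd5, the receptor gene with the most epithelial UMIs of dataset 1, had 7 stromal and 2087 epithelial UMIs (a ratio of 0.15, interval 0.060 to 0.31). Fzd6 had 0 and 239 (a ratio of at most 0.563). Fzd4 was called lower in dataset 2, from 0 UMIs against 14162, a ratio of at most 0.759. This call was lost under DESeq2 (adjusted p = 0.168), in Acta2-type cells only (edgeR adjusted p = 0.103), with wells below the study's gene limit added to the stromal-like cells (0.105) and in 3 of the fits that left out a plate (0.0543 to 0.117). In dataset 1 the Fzd4 ratio was 0.571 (0.319 to 0.946), and its fold change was not called by edgeR. The co-receptors Lrp5 and Lrp6 had ratios of 1.27 (0.57 to 2.43) and 0.77 (0.45 to 1.22) in dataset 1, with intervals that include 1, and Fzd8 had 2.99 (1.17 to 6.38) from 7 UMIs; none of these was called.

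Of the feedback genes, Rnf43 was lower in stromal-like cells. It had 0 UMIs in the stromal-like cells of dataset 1 against 274 in the epithelium, a ratio of at most 0.491, and was called lower (edgeR adjusted p = 0.00347). Znrf3 had 5 against 361 UMIs, a ratio of 0.621 (0.20 to 1.46), and Axin2 2 against 56, a ratio of 1.60 (0.19 to 6.06). Both intervals include 1, and neither was called. In all, of the 10 set members that were called in dataset 1 and could be tested in dataset 2, 6 were called in the same direction there and 0 in the opposite direction.

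**Figure D2:**
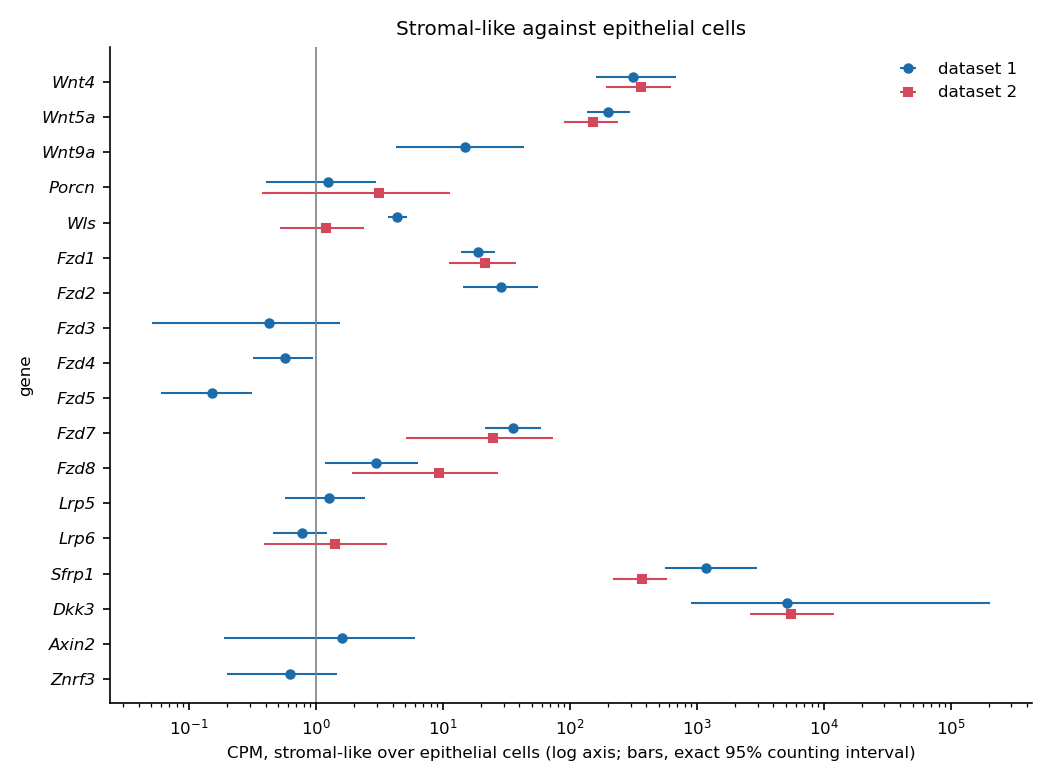
CPM in stromal-like cells over those in epithelial cells for set members with at least 1 UMI on both sides (log axis), in dataset 1 (circles) and dataset 2 (squares); bars are exact 95% intervals that cover counting error only, and the vertical line marks a ratio of 1. Wnt4, Wnt5a, Sfrp1 and Dkk3 lie beyond a ratio of 100 in both datasets, and Fzd5 of dataset 1 lies left of the line.

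The stromal-like cells of dataset 1 fell into the study's clusters 11 (18 cells) and 12 (15 cells), and these differed in their ligands. This comparison was chosen after the data were seen. Wnt5a was at 48.7 and 149 CPM in cluster 11 and at 460 and 574 in cluster 12, so that both pools of cluster 12 lay above both of cluster 11. Wnt4 was at 12.2 and 49.7 in cluster 11 against 230 and 298, and Sfrp1 at 207 and 220 against 411 and 699. These 3 were the only set members of 22 that were called, all higher in cluster 12, against 4.61% of all genes (edgeR's quasi-likelihood test), with log2 fold changes of 2.27 ± 0.57 for Wnt5a, 2.92 ± 0.60 for Wnt4 and 1.40 ± 0.40 for Sfrp1. All Wnt5b UMIs of the stromal-like cells (4 and 9 in the pools) were in cluster 12. By markers, cells with more Pdgfra-type than Acta2-type markers numbered 17, and Wnt4 was found in 12 of these 17 and in 2 of the 15 Acta2-type cells. The count of 3 fell to 1 without plate 25 of tube1 and to 0 without plate 30 of tube2.

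Endocrine cells had high levels of the secreted set members Sfrp5, Rspo4 and Wnt4, but not of all secreted members. Dkk3 had 0 endocrine UMIs in both datasets, Sfrp1 had 1 in dataset 1 and 3 in dataset 2, and Wnt11 had 0 and 6. The comparisons of endocrine, duodenal and other types with the gastric epithelial types were chosen after the data were seen. In dataset 2 the endocrine cells were split into enterochromaffin-like (ECL) cells, which make histamine (53 cells), D cells, which make somatostatin (31 cells), and X/A cells, which make ghrelin (29 cells). Dataset 1 had 1 endocrine cluster of 24 cells. For the mean of the 3 endocrine types of dataset 2, 13 of 21 set members tested were called, 6 higher and 7 lower. Of all genes 57% were called, 25.8% higher and 31.2% lower. In dataset 1 it was 9 of 22, 4 higher and 5 lower, against 35.4% of all genes (19.8% higher, 15.6% lower). The shares of set members called higher, 28.6% and 18.2%, were near those of all genes. All 8 that were called in dataset 1 and tested in dataset 2 were called in the same direction there.

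Sfrp5 (chromosome 19, 42186410 to 42190691, minus strand), a secreted Wnt antagonist, was found in every endocrine type. Its level was 187 and 212 CPM in ECL cells of pools K and T, 175 and 107 in D cells, and 203 and 329 in X/A cells. In dataset 1 it was 217 and 220 in the endocrine pools. It was found in 49 of 53 ECL cells, 23 of 31 D cells and 27 of 29 X/A cells. The 113 endocrine cells of dataset 2 were 2.83% of its cells and held 84.7% of its 537 Sfrp5 UMIs, and the ratio to epithelial cells was 437 (340 to 569). In dataset 1 the ratio was 139 (94 to 209). The log2 fold change was 9.14 ± 0.32 (edgeR adjusted p = 1.53e-18) in dataset 2 and 8.58 ± 0.40 (edgeR adjusted p = 1.03e-13) in dataset 1.

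Rspo4 (chromosome 2, 151684708 to 151716605, plus strand), a secreted protein that shields Frizzled receptors from Rnf43 and Znrf3, was nearly all in ECL cells. Its level there was 81.4 and 97.6 CPM in pools K and T, while D cells had 10.9 and 3.56 and X/A cells 0 and 6.99. Endocrine cells held 111 of its 113 UMIs in dataset 2 and the epithelium 2, a ratio of 3785 (1023 to 31640). It was found in 32 of the 53 ECL cells. In dataset 1, 16 of 17 Rspo4 UMIs lay in 8 of the 24 endocrine cells, which was too few UMIs to enter that fit. The UMIs of Rspo4 thus exceeded those of the other R-spondins together in both datasets. Such totals depend on the cells sampled. Stromal-like cells held 1.92% of all UMIs in dataset 1 and 0.027% in dataset 2, and endocrine cells 2.175% and 1.438%. The totals therefore do not rank the R-spondins of the whole tissue.

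Wnt4 was higher in endocrine cells too. X/A cells had 67.7 and 80.4 CPM, ECL cells 11.4 and 27.9, and D cells 16.4 and 17.8, so that X/A cells lay above the other endocrine types in both pools. Endocrine cells held 33.2% of the Wnt4 UMIs of dataset 2, and the log2 fold change to the epithelial types was 5.64 ± 0.53 (edgeR adjusted p = 1.41e-09). In dataset 1 the endocrine pools stood at 92.2 and 63.9 and the log2 fold change was 6.97 ± 0.53 (edgeR adjusted p = 8.99e-11). Wnt5a, in contrast, had 0 UMIs in the endocrine cells of dataset 1 and 3 in those of dataset 2.

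The endocrine receptor profile also differed. Fzd4 was lower by a log2 fold change of -4.24 ± 0.28 in dataset 2 (14 endocrine UMIs against 14162 epithelial ones, a ratio of 0.067) and -3.93 ± 0.62 in dataset 1. Fzd5 and Lrp5 were lower in both datasets. Fzd3 was higher in the mean of the endocrine types, at 79.5 and 72.8 CPM in ECL cells and 76.5 and 39.1 in D cells. X/A cells had 22.6 and 21 and were not called (log2 fold change -0.28 ± 0.39). The ratios of endocrine to epithelial cells were 2.575 (2.14 to 3.075) in dataset 2 and 4.505 (2.82 to 6.89) in dataset 1. Fzd7 was at 28.4 and 17.1 in ECL cells and had at most 2 UMIs per pool in D and X/A cells. It was called higher for the mean of the 3 types, a call that was lost with the pool as a block (edgeR adjusted p = 0.0521). Among feedback genes, Axin2 was higher (ratios of 6.675 and 5.66) while Rnf43 was lower, with 10 endocrine UMIs against 2716 (a ratio of 0.251, interval 0.12 to 0.462) and none in the 53 ECL cells. These levels are those of the fit over all types, whose scaling differs from that of the epithelial fit used further down. The median log2 fold change of all genes moved from -0.16 under edgeR to 0.23 under DESeq2's size factors in dataset 2. Sfrp5, Rspo4, Wnt4, Axin2 and Fzd4 lay far outside that shift.

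**Figure D3:**
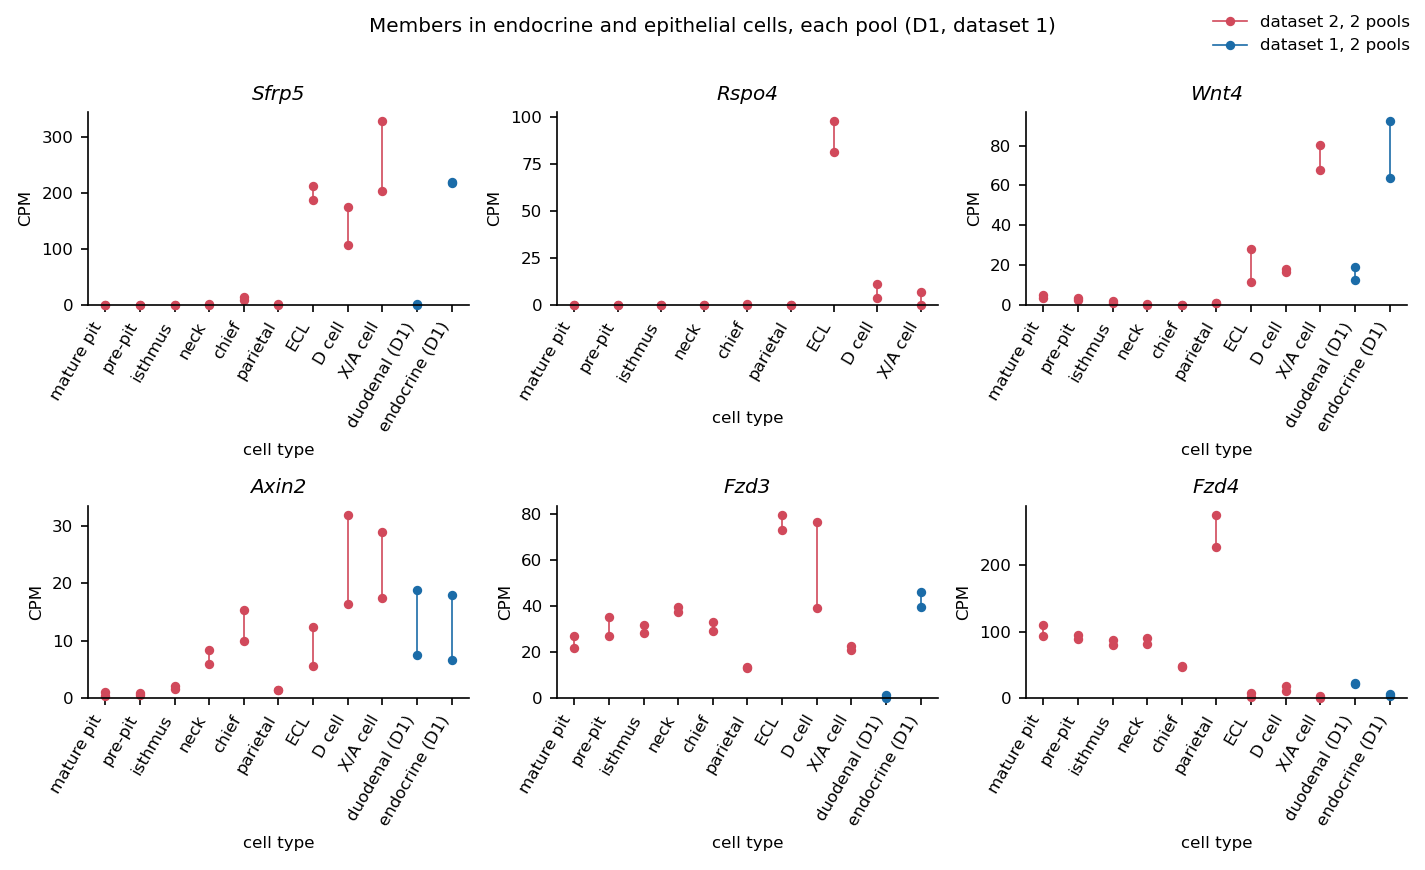
Levels of 6 set members in CPM (scaled by edgeR over all types) in the 6 epithelial and 3 endocrine types of dataset 2 (red) and the duodenal and endocrine types of dataset 1 (blue, marked D1); points are the 2 pools, joined by a line. Sfrp5 is raised in all endocrine types and Rspo4 in ECL cells (81.4 and 97.6), Wnt4 is highest in X/A cells and the dataset 1 endocrine cells, and Fzd4 is near 0 in all of them; Rspo4 did not enter the dataset 1 fit.

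Some receptors were also high in other cells. Fzd4 (chromosome 7, 89053563 to 89062342, plus strand), a receptor known for its role in retinal vessels, stood at 406 and 453 CPM in the 15 endothelial cells of dataset 1 and at 349 and 324 in the 9 of dataset 2. In the same fits parietal cells stood at 204 and 157 CPM in dataset 1 and at 275.5 and 226 in dataset 2. Fzd4 was called higher in endothelial cells than in the mean of the epithelial types in both (edgeR log2 fold changes of 2.87 ± 0.24 and 1.80 ± 0.31). It was the only set member of 22 and of 21 that was higher there, against 13.3% and 7.7% of all genes. Fzd7 was the only set member called higher in leukocytes, with 6 UMIs over the 8 cells of dataset 1 and 7 over the 13 cells of dataset 2, where 9.92% and 10.5% of all genes were called higher. In the duodenal cells of dataset 1, which showed on average 5.97 of 6 enterocyte markers, 10 of 22 set members were called against 43.8% of all genes. Rnf43 was higher there, at 84.8 and 67.4 CPM (log2 fold change 2.13 ± 0.26, edgeR adjusted p = 6.56e-08). Wls was lower, at 3.14 and 6.24 (-4.12 ± 0.38, edgeR adjusted p = 1.6e-10).

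The next comparison was among the 6 corpus epithelial types. All 22 set members that entered the dataset 2 fit differed between at least some of the types, where 87.6% of all 13894 genes did. Against the mean of the other 5 types, neck cells had 14 called, 13 higher and 1 lower. Over all genes 49% were called in neck cells, 27.3% higher and 21.7% lower. Chief cells had 16 called (9 higher, 7 lower), against 50% of all genes (24.3% higher, 25.7% lower). Parietal cells had 15 (11 and 4), against 67.8% (35.2% and 32.6%). Mature pit cells had 12 (3 and 9), against 39.1% (19.4% and 19.7%). Isthmus progenitor cells had 11 (5 and 6), against 51.3% (28.1% and 23.1%), so that both shares of the set (22.7% and 27.3%) were near those of all genes. Pre-pit cells had 9 (2 and 7), against 35.6% (18.2% and 17.4%). The set's median log2 fold change was 0.55 in neck and 0.54 in parietal cells, beside 0.06 and -0.03 for all genes, and -0.57 in mature pit and -0.39 in pre-pit cells, beside -0.09 and -0.02. Each contrast averages the types on the log scale, so that types near 0 UMIs count fully. The same comparisons in dataset 1, chosen after the data were seen, had 15 set members each. Neck cells had 8 called (28.5% of all genes), parietal cells 10 (51.6%), mature pit cells 6 (38.7%), chief cells 4 (30.6%), pre-pit cells 4 (22.7%) and isthmus progenitor cells 3 (40.3%). The count in mature pit cells fell from 6 to 3 without plate 29 of tube2, and that in neck cells from 8 to 5 without plate 25 of tube1 or plate 29 of tube2. Called in the same direction in dataset 2 were 7 of the 8 in neck cells, 8 of 10 in parietal, 5 of 6 in mature pit, 4 of 4 in chief, 3 of 4 in pre-pit and 2 of 3 in isthmus progenitor cells, and 0 were called in the opposite direction.

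The ligand levels in the epithelium were low and differed by type. Wnt4 had 4.09 and 2.85 CPM in mature pit cells of pools K and T and 1.90 and 2.68 in pre-pit cells, and 0 in chief cells of both pools. It was called higher in mature pit cells (log2 fold change 3.70 ± 0.70, edgeR adjusted p = 0.000965), pre-pit cells (3.03 ± 0.65) and isthmus progenitor cells (1.74 ± 0.65). Wnt5a was highest in parietal cells, at 6.71 and 5.82 against 0.454 to 3.31 in the other types (1.60 ± 0.24, edgeR adjusted p = 4.98e-05). Wnt9a was at 5.59 and 5.01 in chief cells and 2.85 and 3.05 in parietal cells, and at most 1.07 elsewhere, with both types called higher. Its lower call in mature pit cells was lost with the pool as a block (edgeR adjusted p = 0.0535). Wnt11 was at 5.84 and 7.23 in neck cells and 0.559 and 0.77 in chief cells. In mature pit cells the Wnt11 pools lay far apart, at 0.908 and 8.91.

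Porcn and Wls were both called higher in chief and neck cells of dataset 2. Porcn was at 34.1 and 36.2 CPM in chief cells and 24 and 25.8 in neck cells, above 8.65 to 18.1 in the other types, without overlap between pools. Wls was at 237 and 238 in chief and 215 and 196 in neck cells. The remaining types lay between 96.6 and 182. These levels use edgeR's scaling factors. Without the factors both genes were lower in chief than in neck cells. The Wls UMIs of pools K and T were 424 and 617 of 6425681 UMIs in chief cells. In neck cells they were 3822 and 3257 of 28566435. The log2 fold changes in chief cells were 1.34 ± 0.11 for Porcn and 0.71 ± 0.08 for Wls (edgeR adjusted p = 2.34e-07 and 3.1e-06). In dataset 1 Porcn and Wls were called higher in chief cells as well (1.80 ± 0.37 and 1.12 ± 0.18). In neck cells of dataset 1 Wls was called higher and Porcn was not, with pools (13.1 and 15.6) that overlapped those of pre-pit cells (12.6 and 13.3). In parietal cells of dataset 2 Porcn was lower (-1.09 ± 0.09), at the lowest level of the 6 types, and Wls was higher (0.21 ± 0.07).

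The Frizzled receptors differed between epithelial types. Parietal cells, the acid-secreting cells, had Fzd4 at 219 and 183 CPM, where no other type passed 89.0 (log2 fold change 1.68 ± 0.07, edgeR adjusted p = 7.68e-11), and at 174 and 130 in dataset 1 (1.74 ± 0.16). Fzd6 was at 35.4 and 34.1 in parietal cells and at most 20.2 elsewhere (1.38 ± 0.09). Mature pit cells, which line the surface, had Fzd5 at 121 and 140, above at most 75.5 in the other types (1.11 ± 0.11, edgeR adjusted p = 1.73e-06), and in dataset 1 at 193 and 197 (1.56 ± 0.13). Neck cells had Fzd3 at 31.1 and 29.7, while parietal cells had 10.2 and 10.8. Neck cells and isthmus progenitor cells shared Fzd7, at 4.49 and 4.22 and at 3.05 and 3.89, against at most 1.69 in pit and parietal cells and 0 UMIs in the 180 chief cells. Chief cells had Fzd2 at 7.27 and 10.4, above 3.37 and 3.13 in neck cells and at most 1.97 elsewhere (3.78 ± 0.38, edgeR adjusted p = 1.86e-06). The lowest Fzd4 levels were in chief cells, at 36.9 and 38.1. Fzd9 had its highest levels there, at 2.24 and 3.47. Fzd8 varied little, from 4.99 to 10.4 over all types, and was called higher in parietal cells (0.60 ± 0.14) and lower in pre-pit cells. Pre-pit and isthmus progenitor cells lay close together, with means of 73.9 and 72.9 for Fzd5 and overlapping pools for Fzd3 (21.2 and 28.1 against 22 and 24.6), and neither type was the highest for any set member.

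The co-receptors ran in opposite directions. Lrp5 was at 26.4 and 23.5 CPM in mature pit cells and at 5.10 and 3.93 in parietal cells. Lrp6 was at 116 and 99.9 in parietal cells and between 51.5 and 64.1 in every other type. In parietal cells the log2 fold changes were -1.77 ± 0.15 for Lrp5 and 0.91 ± 0.06 for Lrp6 (edgeR adjusted p = 9.83e-08 and 1.87e-08), and in dataset 1 they were -1.96 ± 0.32 and 0.85 ± 0.15. For Lrp5 the pools of pre-pit cells (22.6 and 18.0) and isthmus progenitor cells (21.2 and 18.3) overlapped, and neck cells (14.8 and 13.8) lay between these and chief cells (6.15 and 6.55).

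Of the antagonists, Sfrp1 was found in neck cells (2.86 and 2.47 CPM) and isthmus progenitor cells (1.97 and 1.08) and in neither pool of mature pit cells. Sfrp5 was at 6.71 and 10.4 in chief cells, where 27 of 180 cells had it, and at most 0.602 in the other epithelial types (log2 fold change 6.29 ± 0.71, edgeR adjusted p = 8.3e-06).  Notum had 29 UMIs in 25 of 1247 neck cells, 32 in 22 of 1285 isthmus progenitor cells and 1 in the 180 chief cells of dataset 2, and did not enter the epithelial fit.

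With edgeR's scaling Axin2 was highest in chief and neck cells, and Rnf43 and Znrf3 were highest in neck, chief and parietal cells. Axin2 was at 7.83 and 12.3 CPM in chief cells and 4.66 and 6.62 in neck cells, and between 0.356 and 1.59 in the other types, so that these types did not overlap with the rest. Its log2 fold changes were 3.02 ± 0.32 in chief and 1.97 ± 0.24 in neck cells (edgeR adjusted p = 3.18e-06 and 1.71e-05). Rnf43 was at 29.1 and 23.9 in chief, 21.4 and 26.3 in neck and 21.2 and 19.9 in parietal cells. The chief and neck pools overlapped, and the parietal pools lay just below both. Pit cells had 7.84 to 9.49. Znrf3 was highest in parietal cells (35.2 and 34.6). Without edgeR's scaling factors Rnf43 was at 17.7 CPM in chief, 28.7 in neck and 19.3 in isthmus progenitor cells. Znrf3 was then at 18.05, 31.2 and 21.1 in these types, and Axin2 at 7.16, 6.76 and 1.80. In mature pit and pre-pit cells Axin2, Rnf43 and Znrf3 were all called lower. Even in chief cells Axin2 was sparse, with 46 UMIs in 40 of 180 cells, 16 of which also had an Lgr5 UMI. In neck cells it had 193 UMIs in 151 of 1247.

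**Figure D4:**
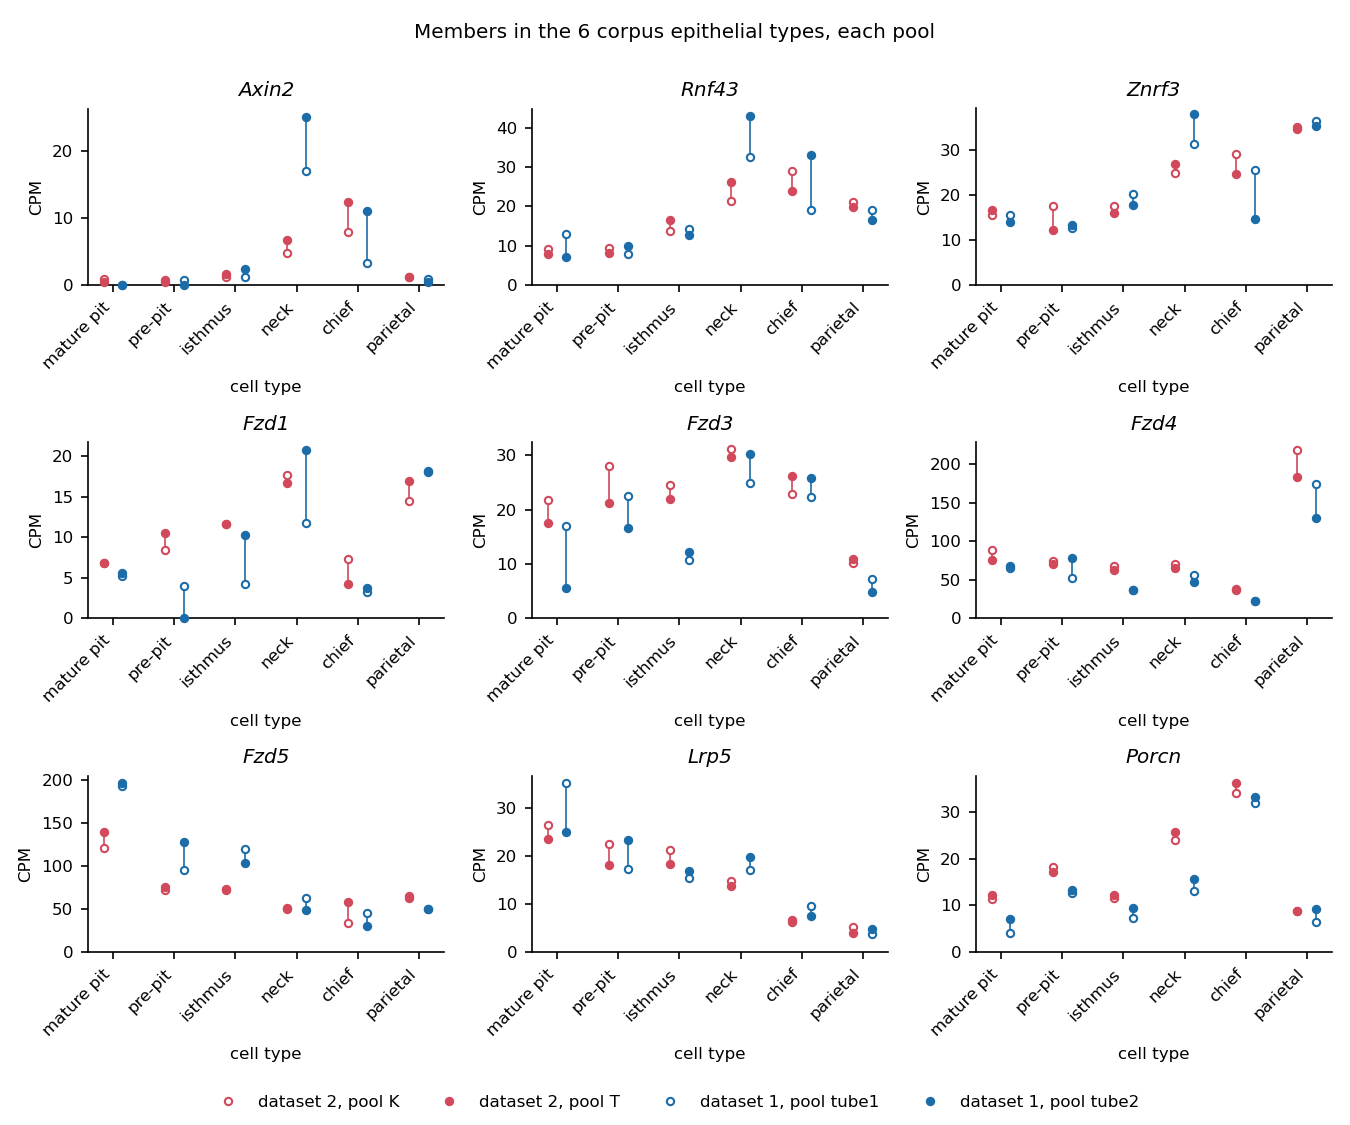
Levels of 9 set members in CPM (scaled by edgeR over the epithelial types) in the 6 corpus epithelial types; open and filled points are the 2 pools of dataset 2 (red) and dataset 1 (blue), joined by a line. Fzd4 is highest in parietal cells (219 and 183 in dataset 2), Fzd5 and Lrp5 in mature pit cells and Porcn in chief cells in both datasets, while Axin2 is highest in chief cells in dataset 2 and in neck cells in dataset 1.

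Axin2 in the neck cluster of dataset 1 came in part from few cells. Its level there was 17 and 25.1 CPM, above 3.19 and 11.1 in chief cells (log2 fold change 4.60 ± 0.54, edgeR adjusted p = 5.4e-06). The 45 cells held 42 Axin2 UMIs, in 15 cells. An earlier annotation column of the study gives 3 of the 45 cells, and 1 isthmus cell, the name Lgr5+/Axin2+. These 3 cells held 22 of the 42 Axin2 UMIs, 30 of the 31 Sfrp5 UMIs and 31 of the 69 Lgr5 UMIs of the cluster, with 0 UMIs of the neck marker Muc6 and 1 of the chief marker Cblif. The other 42 cells all had Muc6 and held 14.2 Axin2 CPM against 188 in the 3. All 14 Notum UMIs of the cluster lay in the other 42 cells, in 7 of them. Without the 4 cells, an alternative added after the data were seen, Axin2 and Sfrp5 no longer had enough UMIs to be tested, and the neck count fell from 8 to 6. Rnf43 (1.34 ± 0.24), Znrf3, Fzd1 and Fzd3 remained called higher. The corresponding Axin2 level in dataset 2 neck cells did not rest on few cells, since no cell there held more than 3 Axin2 UMIs.

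Region was compared in the pit cells of dataset 1, antrum against corpus. Of 15 set members tested, 2 were called, 1 higher and 1 lower, against 9.24% of all genes (5.51% higher and 3.73% lower). Wnt11 was at 61.5 and 53.8 CPM in antrum mature pit cells and 24 and 19.1 in antrum pre-pit cells, against 7.82 and 8.34 in corpus mature pit and 2.64 and 2.21 in corpus pre-pit cells. The antrum pools lay above the corpus pools at both stages (log2 fold change 2.96 ± 0.34, edgeR adjusted p = 5.42e-06). Plate by plate, Wnt11 ran from 33.2 to 66.4 CPM in antrum pit cells and from 2.46 to 6.50 in corpus pit cells over 6 plates, without overlap. Within the antrum, Wnt11 was higher in mature pit than in pre-pit cells (1.40 ± 0.33, edgeR adjusted p = 0.00683), with Fzd5 and Lrp5 the other set members called there (3 of 15, against 14.7% of all genes). Fzd3 was lower in the antrum, at 1.84 and 2.94 in mature pit and 3.80 and 9.53 in pre-pit cells, against 16.9 and 5.56 and 22.5 and 16.6 in the corpus (-1.98 ± 0.41, edgeR adjusted p = 0.00309). Over plates its ranges were 1.01 to 7.15 and 9.75 to 22.7. Without plate 25 of tube1 the Fzd3 change was -1.53 and was not called (edgeR adjusted p = 0.107). Whether maturation differed by region was tested as an interaction. It gave 0 of 15 set members by edgeR's quasi-likelihood test, 0 at an unadjusted p under 0.05 and 0 by DESeq2, against 0.0492% of all genes.

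**Figure D5:**
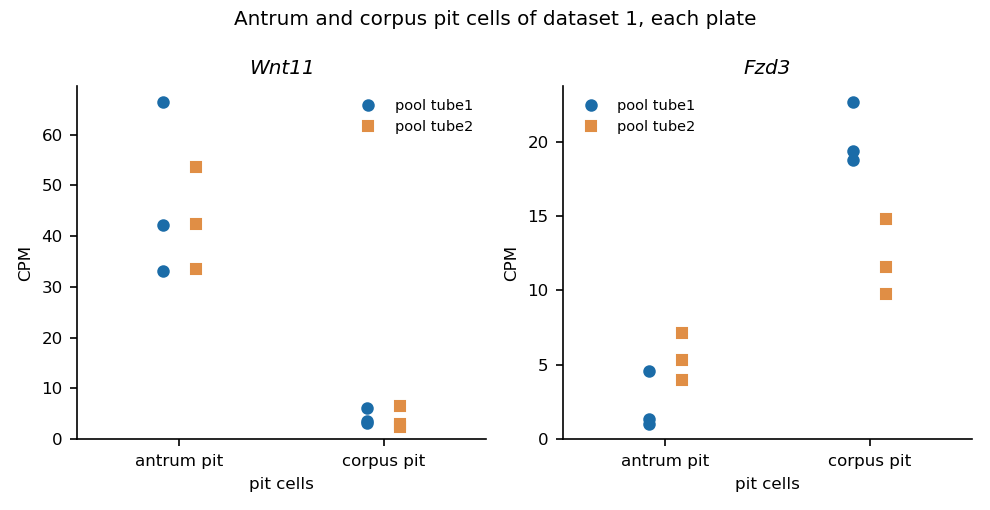
CPM of Wnt11 (left) and Fzd3 (right) in antrum and corpus pit cells of dataset 1, each point 1 plate (circles tube1, squares tube2). All 6 antrum points of Wnt11 (33.2 to 66.4) lie above all 6 corpus points (2.46 to 6.50), and all antrum points of Fzd3 lie below the corpus points.

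Other genes of the pathway were taken from lists, which were chosen with earlier results of these data known. The genes named from the lists are among the called ones with the largest fitted log2 fold change in each comparison. These fits average the types on the log scale, whereas the CPM given beside the genes are pooled over types without scaling factors. In neck cells of dataset 2, 9 of 11 tested genes from the list of reported targets were called higher and 0 lower, as were 8 and 1 of 12 nuclear effectors, 6 and 1 of 9 co-receptors and receptor partners, 4 and 0 of 8 planar polarity genes, 1 and 0 of 3 other antagonists, and 4 and 3 of 15 genes of the destruction complex. Over all genes 27.3% were called higher and 21.7% lower, so that the share of destruction complex genes was near that of all genes. The largest fitted log2 fold changes there were 4.865 ± 0.48 for Ror2, 4.475 ± 0.31 for Smoc2 and 4.25 ± 0.55 for Nkd1. Ror2, a receptor of Wnt5a, stood at 5.92 CPM against 1.70 in the other types pooled. Smoc2, a matrix protein, stood at 18.4 against 1.505, and Nkd1, an inhibitor of Dishevelled, at 2.835 against 0.609. By pooled CPM the order of these genes differs. In parietal cells of dataset 2, 2 of the 11 reported targets were called higher and 8 lower, where 35.2% of all genes were higher and 32.6% lower. In dataset 1 it was 1 and 1 of 10, where 27.8% of all genes were higher and 23.9% lower. In parietal cells of dataset 2 Ascl2 had 4 UMIs and Smoc2 3, against 393 and 685 in the other types. Chief cells of dataset 2 had 5 higher and 2 lower of the same 11 (24.3% and 25.7% of all genes). Sostdc1, a secreted antagonist that binds Lrp6, had 1836 UMIs in chief cells and 32 in the other 5 types together. Lgr5, the R-spondin receptor, was at 13.4 against 1.35 CPM.

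In stromal-like cells of dataset 1 the other antagonists Igfbp4 (432 UMIs against 65 in all epithelial cells) and Apcdd1 (70 against 5) were higher, as was Dact3 (50 against 1). By list, 2 of 3 antagonists, 6 of 8 co-receptors and receptor partners, 5 of 9 planar polarity genes, 5 of 13 nuclear effectors, 4 of 16 destruction complex genes and 2 of 12 reported targets were higher there, beside 22.5% of all genes. Called lower were 2 planar polarity genes and 1 each of the co-receptors, nuclear effectors and reported targets, beside 17.3% of all genes. The shares of higher calls among destruction complex genes and reported targets were near or below that of all genes. In endocrine cells of dataset 2, Prox1 had 257 UMIs against 5 and Celsr3, a planar polarity cadherin, 109 against 8. Of their lists, 4 of 11 reported targets were higher and 3 lower, and 6 of 10 planar polarity genes were higher and 2 lower. Of all genes 25.8% were higher and 31.2% lower. In antrum pit cells Ephb2 (12.6 against 3.01 CPM) and Cd44 (15.9 against 2.01) were higher and Celsr1 was lower (7.94 against 24.6). By list, 2 of 10 reported targets were higher and 1 lower, 1 and 1 of 11 nuclear effectors, and 1 and 0 of 12 destruction complex genes. Of 6 planar polarity genes 0 were higher and 1 lower, and 0 of 6 co-receptors and 0 of 2 antagonists were called. Of all genes 5.51% were higher and 3.73% lower.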

How the data were processed

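The authors sorted single cells into plates and read them by Quartz-Seq2, with RT primers that differed between the datasets. The authors made the deposited UMI counts from reads aligned by STAR to GRCm39 (gene models Gencode M27), using also FASTX-Toolkit and Drop-seq tools, and bcl2fastq 2.20.0.422 per the labels, and clustered with Seurat the cells with at least 2500 genes. The deposited counts are whole numbers per gene name and well, without normalization. The deposited annotation also gives the percent of mitochondrial UMIs of each cell, which entered no test. Gene names shared by overlapping or antisense genes cannot be told apart here.

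From these, UMIs of the annotated cells were summed per pool and cell type (at least 3 cells in a pool), scaled by TMM, filtered by filterByExpr and tested with edgeR 4.0.16 (quasi-likelihood, cell type only, Benjamini-Hochberg over all genes tested, called at 0.05) in R 4.3.3. The fits used 12 sums and 13894 genes (epithelium of dataset 2), 16 and 10163 (epithelium of dataset 1), 25 and 13147 (all types, dataset 2), 28 and 12245 (all types, dataset 1) and 30 and 11965 (clusters, dataset 1). DESeq2 1.42.0 was an alternative. Levels are in CPM, UMIs scaled to 1000000 with the TMM factors; ratios between sources use CPM without these factors, with exact 95% intervals, which cover counting error only, and a ratio against 0 UMIs is limited by a floor of 3 UMIs. Pools hold 9242558 and 10664171 UMIs in dataset 1 and 67173249 and 72438153 in dataset 2. Replicates are 2 pools per dataset; no doublets were called beyond the authors' sort and filters. Types of a pool share its mice. Their deviations from the type means correlated with a median r of 0.0127 (-0.0316 to 0.0537, 28 pairs of types) in dataset 1 and 0.132 (0.0689 to 0.411, 15 pairs) in dataset 2, across genes. The test was checked on simulated counts with genes changed 2, 4 or 8 times. The simulated types were otherwise alike, whereas 87.6% of genes differed among the 6 epithelial types of dataset 2. The shares below hold for that simpler setting. Unchanged genes were 5.15% of those called for neck cells, 6.56% for antrum against corpus, and 1.01% and 0% for stromal-like cells of datasets 1 and 2. The test recovered 83.3%, 96.4% and 97.3% of the changed genes for neck cells of dataset 2. For antrum against corpus pit cells it recovered 68.8%, 91.5% and 95.4%. For stromal-like cells it recovered 31.9%, 49.3% and 69% in dataset 1 and 0%, 12.7% and 28.6% in dataset 2. A stromal comparison that was not called therefore does not show equal levels.

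Every set member is accounted for; those with at least 20 UMIs in a dataset are named, with those called given by fold and error, and of the other pathway genes up to 3 called ones with the largest change per comparison. The set, the marker and pathway lists and the tests were chosen with earlier results of these data known. Alternatives were DESeq2, other count filters, mitochondrial genes left out, the plate as the unit, the pool as a block, other rules for stromal-like cells, both datasets in one fit, and each plate left out.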

Additional observations from a re-analysis of the deposited data

Results flagged for a closer look

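A signal of stromal set members was also present in wells outside the annotation. Of the unannotated wells that fell below the study's gene limit by at most a factor of 2, 5 showed at least 3 stromal markers of a list. Wnt4, Wnt5a, Sfrp1 and Dkk3 together had 18 of the 17251 UMIs of these wells, 1040 CPM, and 13 of the 1005107 UMIs in the other wells of that range, 12.9 CPM. The wells were chosen by stromal markers and not by these 4 genes. Wnt5a had 8 of the 18 UMIs, Wnt4 6, and Sfrp1 and Dkk3 2 each. Adding the wells to the stromal-like cells left 18 of 19 called stromal results called. In dataset 2, 42 sets of levels over the 6 plates of a pool (members with at least 200 UMIs, epithelial cells) were checked for a plate apart from the others by Dixon's criterion, and 0 were, where 2.1 would be by chance.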

How the results depend on the processing

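Each call of a single set member was recomputed under those of its alternatives in which the gene could still be tested, 2674 values in all. Of these, 2488 kept direction and call, and 185 kept direction and lost the call. The remaining 1 turned, Fzd7 in stromal-like cells of dataset 2 with Acta2-type cells only (-5.38), which rests on 3 UMIs. Calls whose gene did not enter an alternative fit are not among the 2674. Examples are Axin2 and Sfrp5 in neck cells of dataset 1 without the 4 cells named Lgr5+/Axin2+. The 2488 therefore do not give the share of all calls that was kept. With the plate as the unit, which leaves fewer genes to test, the counts were 13 for any difference among the 6 epithelial types of dataset 2 (all 13 tested), 10 for chief cells of dataset 2, 6 for duodenal cells, 4 for neck cells of dataset 1 and 6 for parietal cells of dataset 1. DESeq2 gave 7 for mature pit cells of dataset 2 (3 of them higher). Both datasets in one fit gave 15 for the stromal comparison of dataset 2 (9 higher). The cause was not tested. With the pool as replicate block, the count rose from 2 to 3 for antrum against corpus, from 11 to 12 for isthmus and from 14 to 15 for neck cells of dataset 2, and fell from 12 to 11 for mature pit cells of dataset 2; 3 calls of single members were lost (Fzd7 in endocrine and Wnt9a in mature pit cells of dataset 2, Wnt11 in endocrine cells of dataset 1), and no count moved by over 1.5 times.

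Leaving out 1 plate at a time gave counts of 1 to 3 for antrum against corpus (1 without plate 25), 0 to 2 for cluster 12 against 11 (0 without plate 30, 1 without plate 25), 3 to 6 for mature pit cells of dataset 1 (3 without plate 29), 5 to 8 for neck cells of dataset 1 (5 without plate 25 or 29), 9 to 12 for stromal-like cells of dataset 1 and 6 to 8 for those of dataset 2. Without 1 of the plates of pool K, dataset 2 had under 3 stromal-like cells, and Pdgfra-type cells only could not be fitted there. DESeq2 moved the higher calls to 13 of 16 in neck, 3 of 9 in isthmus and 8 of 14 in endocrine cells of dataset 2 and to 7 of 7 in stromal-like cells of dataset 2, and to 4 of 6 in endocrine cells of dataset 1; its median over all genes shifted from -1.26 to 0.23 for stromal-like cells of dataset 2 and from -0.10 to 0.15 for those of dataset 1. Of 170 levels of at least 5 CPM, 1 moved by over 1.5 times without scaling and 8 as a median over plates. Of all 252 levels, 134 moved by more than the SD of the pools without scaling, and 78 as a median over plates. Depth limits the stromal-like cells most: 38194 UMIs in dataset 2.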
